A study of Mus musculus with 4 samples.

Results

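The pluripotency factors described here are 10 genes, Pou5f1, Nanog, Zfp42, Esrrb, Klf2, Klf4, Klf5, Tfcp2l1, Utf1 and L1td1, taken by symbol from tables of 24831 genes, and all 10 had enough counts to be tested. Their RNA was sequenced from mouse somitic gastruloids, in which aggregated embryonic stem cells elongate in culture and form presomitic tissue and somites. Every library came from E14 embryonic stem cells with a triple reporter, in which the endogenous Zeb2 gene carried an HA epitope and the FKBP12F36V degron, so the untreated group held the tagged protein as well. Aggregates began with 300 sorted cells in NDiff227 medium, received 3 μM CHIR99021, an activator of WNT signalling, after 48 h and were moved into 10% Matrigel at 96 h. One group (dTAG-13) was given 100 nM dTAG-13, a small molecule that directs FKBP12F36V fusion proteins to degradation, at 72 and 96 h. The other group is labelled untreated, with DMSO named as the control in the growth protocol. Each group held 2 libraries, numbered 1 and 2, and no label says whether these came from separate cultures or whether the tagged line is 1 clone, so p-values measure the spread between these libraries only.

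Pluripotency is the capacity of a cell to form every tissue of the embryo, and a small network of transcription factors maintains it. POU5F1 (OCT4) and NANOG stand at its core; ESRRB, TFCP2L1, KLF2, KLF4 and KLF5 are factors of the naive state, which resembles the epiblast before implantation and is kept up in culture by LIF and WNT signals. Zfp42 (REX1) and Utf1 are widely used markers of embryonic stem cells, and these genes are normally shut down as cells leave the epiblast and enter germ layers. ZEB2 is a zinc finger repressor known for its role when embryonic stem cells leave pluripotency and when epithelial cells turn mesenchymal.

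ZEB factors bind DNA at E-boxes of the form CAGGTG, the POU domain of POU5F1 binds an octamer that begins ATGCAAA, and KLF proteins bind GC-rich and CACCC elements such as CCACACC. The 250 bases before each annotated start of transcription (RefSeq, GRCm38.p6) were searched for these letters on both strands; 9 of the 10 genes matched the promoter table, with 12 windows, and Klf5 did not. CAGGTG stood before 3 of the 9 genes (Nanog, Zfp42 and Tfcp2l1), in 4 of the 12 windows. Of all 32851 windows of the same length, 17.2% held it. ATGCAAA stood before Nanog and Zfp42, in 3 of the 12 windows (4.12% of all windows), and CCACACC before Zfp42, in 1 of the 12 (6.52%). Both Nanog windows overlap and hold the same E-box and the same octamer site, so each site is counted in both windows. These 3 motifs did not overlap in the windows printed here. The windows that held CAGGTG are printed for a reader to see the motifs in place, and those of Pou5f1 and L1td1, which held none of the 3, are set beside them as the member of highest level per exon length and as one whose groups did not overlap. Each is 5′ to 3′ on the strand of the gene and ends at the base before the start, with matches to any of the 3 motifs, or their reverse complements, in capitals.
Nanog, chr6:122707239-122707488, plus strand: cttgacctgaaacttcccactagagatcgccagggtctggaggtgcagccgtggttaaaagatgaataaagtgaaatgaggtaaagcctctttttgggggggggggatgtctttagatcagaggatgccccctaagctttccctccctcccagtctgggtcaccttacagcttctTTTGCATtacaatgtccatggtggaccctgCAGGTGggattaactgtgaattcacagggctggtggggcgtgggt
Zfp42, chr8:43307010-43307259, minus strand: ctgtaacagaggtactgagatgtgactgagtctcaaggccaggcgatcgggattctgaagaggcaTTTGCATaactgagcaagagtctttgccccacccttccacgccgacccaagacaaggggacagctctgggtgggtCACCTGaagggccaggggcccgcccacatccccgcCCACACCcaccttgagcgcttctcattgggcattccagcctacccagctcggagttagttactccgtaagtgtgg
Tfcp2l1, chr1:118627695-118627944, plus strand: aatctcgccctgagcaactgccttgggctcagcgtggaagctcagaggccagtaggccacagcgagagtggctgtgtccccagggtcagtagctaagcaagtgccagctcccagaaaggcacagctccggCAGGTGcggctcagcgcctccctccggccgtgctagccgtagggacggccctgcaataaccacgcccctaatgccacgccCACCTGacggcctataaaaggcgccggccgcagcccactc
Pou5f1, chr17:35505782-35506031, plus strand: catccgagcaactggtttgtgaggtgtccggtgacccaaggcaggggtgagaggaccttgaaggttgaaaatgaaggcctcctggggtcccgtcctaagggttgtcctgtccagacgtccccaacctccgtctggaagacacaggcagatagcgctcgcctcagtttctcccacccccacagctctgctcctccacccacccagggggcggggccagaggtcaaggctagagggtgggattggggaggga
L1td1, chr4:98726504-98726753, plus strand: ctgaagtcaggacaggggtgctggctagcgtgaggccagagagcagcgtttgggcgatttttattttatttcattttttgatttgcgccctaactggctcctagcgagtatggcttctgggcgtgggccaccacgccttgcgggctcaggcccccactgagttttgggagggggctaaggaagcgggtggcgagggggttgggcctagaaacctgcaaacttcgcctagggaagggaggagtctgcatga
Tfcp2l1 held CAGGTG in both orientations, beginning 120 and 40 bases before the start. The start used for it, 118627945, lies within the gene span given below, which begins at 118627923. In Nanog the octamer letters began 75 and the E-box letters 45 bases before the start. In Zfp42 the octamer began 185, the E-box 110 and the KLF element 75 bases before it. A match says that the letters are present and is no measure of binding. For Nanog and Pou5f1, which have 2 annotated starts each, the window of the first is shown.

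The libraries held 11491330 to 12716172 reads counted in genes. No gene of 13602 passed an adjusted p of 0.05 in the quasi-likelihood test of edgeR, fitted to the group alone (0% called), while 479 (3.52%) had an unadjusted p under 0.05 and DESeq2 called 40 (0.34%). Zeb2 mRNA was at 98.2 and 163.8 CPM (read counts scaled to a common, TMM-normalised library size) untreated and at 102 and 108 CPM with dTAG-13, which acts on the protein, so its mRNA does not check the labels. Of 9 somite and presomitic mesoderm markers all were detected in every library, with a summed level of 273 to 369 CPM untreated and 140.3 to 222 CPM with dTAG-13. The share of reads outside genes was highest in untreated replicate 1 (35.7%) and 24.1% to 29.2% in the others.

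All 10 pluripotency factors were detected in every gastruloid library, and each had a higher level with dTAG-13 within both replicate numbers, by 1.12-fold to 1.71-fold in number 1 and 1.22-fold to 1.99-fold in number 2. The share of all tested genes that were higher in both numbers was 27.7%. With the group alone in the fit, none of the 10 passed the test over all genes in edgeR (0% of all genes called, adjusted p 0.948 to 1.00). None passed in DESeq2 either (0.34% of all genes called, adjusted p 0.547 to 1.00). The edgeR calls changed when the replicate number was added to the fit, as the last section describes. Their fitted log2 fold changes were all above 0 (50.9% of all genes), from 0.31 to 0.90 with a median of 0.53, where the median over all genes tested was 0.00. The level also differed between replicate numbers: it was higher in replicate 2 than in replicate 1 of both groups for all 10 genes (31.4% of all genes), by a median of 1.344-fold in the untreated and 1.59-fold in the dTAG-13 libraries. Untreated replicate 2 stood above dTAG-13 replicate 1 for 7 of the 10 (48.1% of all genes).

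**Figure D1:**
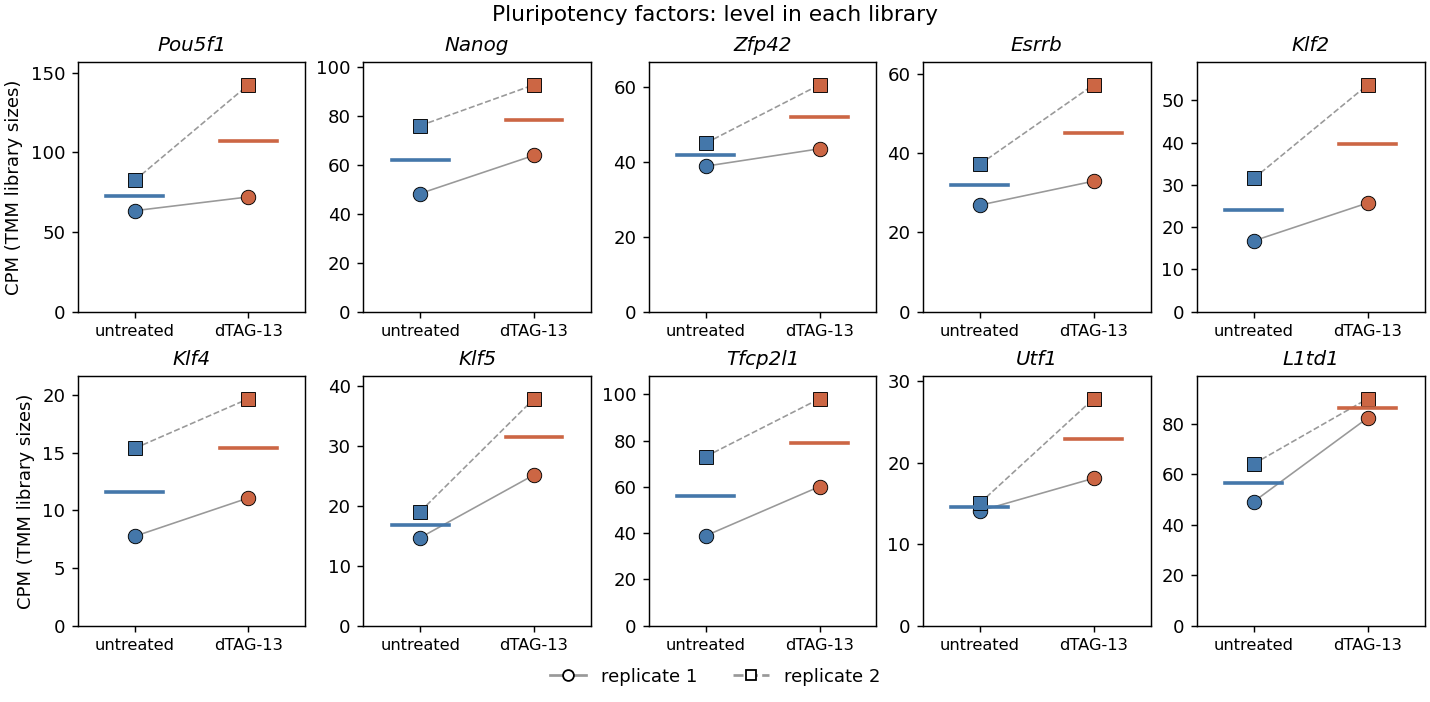
Level of each factor in CPM (linear axes from 0) in the untreated and dTAG-13 libraries; circles are replicate 1 and squares replicate 2, thin lines join libraries of the same number, and bars are means of 2. All lines slope upward and all squares lie above the circles of their group, with dTAG-13 replicate 2 highest in all 10 panels.

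Pou5f1 encodes the POU factor OCT4, without which the pluripotent state is lost. It lies on chromosome 17 at 35506032 to 35510777 (GRCm38.p6, plus strand). It was at 63.4 and 82.4 CPM in untreated replicates 1 and 2 and at 72.0 and 142 CPM in dTAG-13 replicates 1 and 2. The groups overlapped, since untreated replicate 2 exceeded dTAG-13 replicate 1, and dTAG-13 replicate 2 stood well above the other libraries. The fitted log2 fold change was 0.56 ± 0.37 (SE; edgeR, adjusted p = 1.00), with log2 differences of 0.18 in number 1 and 0.79 in number 2. Without dTAG-13 replicate 2 the fitted value was -0.036, and with any other library left out it reached up to 0.97. The annotated antisense gene Gm19553 overlaps 291 bases of Pou5f1 exons, and whether the counting used strand is not stated in these sources, so reads of that gene could be among them.

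Nanog, a homeobox factor of the core network (chromosome 6, 122707489 to 122714633), was at 48.4 and 76.2 CPM untreated against 64.0 and 92.9 CPM under dTAG-13. The libraries rank untreated 1, dTAG-13 1, untreated 2, dTAG-13 2, so the groups overlapped. Its log2 fold change was 0.33 ± 0.29 (SE; edgeR, adjusted p = 1.00), and it was 0.40 in number 1 and 0.29 in number 2, with counting intervals that did not overlap in either number. It ranged from 0.022 to 0.70 when each library was left out in turn. Zfp42, which encodes the zinc finger protein REX1 (chromosome 8, 43295067 to 43307009, minus strand), had the smallest fitted change of the 10. It was at 38.9 and 45.1 CPM untreated against 43.6 and 60.7 CPM under dTAG-13, for a fitted log2 change of 0.31 ± 0.20 (adjusted p = 1.00). Only dTAG-13 replicate 2 stood apart from the other 3 libraries, which lay within 38.9 to 45.1 CPM, and the fitted value ranged from 0.033 to 0.53 with 1 library left out.

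Esrrb, an orphan nuclear receptor that sustains self-renewal (chromosome 12, 86361117 to 86521628), was at 26.9 and 37.2 CPM untreated against 32.9 and 57.2 CPM under dTAG-13. This order of libraries was that of Pou5f1, with the groups overlapping. Tfcp2l1, a grainyhead-related factor downstream of LIF and STAT3 (chromosome 1, 118627923 to 118685168), was at 38.9 and 73.2 CPM untreated against 60.2 and 98.2 CPM under dTAG-13. Its 2 numbers lay far apart in both groups, by 1.88-fold in the untreated and 1.63-fold in the dTAG-13 libraries, while the fold within a number was 1.55 in number 1 and 1.342 in number 2. The fitted log2 fold changes were 0.49 ± 0.31 for Esrrb and 0.50 ± 0.40 for Tfcp2l1 (SE; edgeR, adjusted p = 1.00 for both). With 1 library left out they ranged from 0.021 to 0.84 and from 0.086 to 1.03. A small nuclear RNA gene, Gm23497, overlaps 130 bases of Tfcp2l1 exons on the same strand.

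The KLF factors, zinc finger proteins of which KLF2, KLF4 and KLF5 share tasks in embryonic stem cells, differed in how far their groups separated. Klf5, which is also expressed in many epithelia (chromosome 14, 99298691 to 99313412), was at 14.7 and 19.0 CPM untreated against 25.1 and 37.8 CPM under dTAG-13. Both dTAG-13 libraries stood above both untreated ones, which 14.4% of all genes tested did. Its log2 fold change of 0.90 ± 0.26 was the largest of the 10 (SE; edgeR, adjusted p = 0.948), with 0.77 in number 1 and 0.99 in number 2, and it ranged from 0.56 to 1.17 when each library was left out in turn. Klf2, which is also known in endothelium (chromosome 8, 72319062 to 72321654), was at 16.8 and 31.6 CPM untreated against 25.7 and 53.7 CPM under dTAG-13. Its groups overlapped, and its replicates lay 1.88-fold and 2.09-fold apart, against folds of 1.53 and 1.70 within a number. The fitted log2 fold change was 0.72 ± 0.50 (adjusted p = 1.00), and it ranged from 0.075 to 1.24 with 1 library left out. The summed level of 7 endothelial markers went the other way between replicates, at 168 and 43.1 CPM untreated against 138 and 49.5 CPM under dTAG-13. Most of the sum in the replicate 1 libraries was Kdr, while Pecam1 was highest in dTAG-13 replicate 2 (18.7 and 18.0 CPM untreated, 23.2 and 25.3 CPM under dTAG-13). The part of endothelial cells in the level of Klf2 was not tested.

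Klf4, one of the factors used to reprogram somatic cells (chromosome 4, 55527137 to 55532475, minus strand), had the fewest reads of the 10, with 103 to 232 counts per library. It was at 7.75 and 15.4 CPM untreated against 11.1 and 19.7 CPM under dTAG-13, for a fitted log2 change of 0.41 ± 0.44 (SE; edgeR, adjusted p = 1.00). The groups overlapped, and the fitted value turned to -0.015 when untreated replicate 1 was left out and to -0.077 when dTAG-13 replicate 2 was. The ratio of Klf2 to Klf4 CPM stayed within 2.05 to 2.73 over the 4 libraries, whereas Klf5 to Klf4 ran from 1.24 in untreated replicate 2 to 2.27 in dTAG-13 replicate 1.

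Utf1 and L1td1 were the other members whose groups did not overlap, which made 3 of the 10 with Klf5, where 14.4% of all genes tested had both dTAG-13 libraries higher. Utf1, a chromatin-associated protein of pluripotent cells (chromosome 7, 139943856 to 139945112), was at 14.1 and 15.02 CPM untreated against 18.1 and 27.8 CPM under dTAG-13. The untreated libraries agreed closely, at 14.5 ± 0.671 CPM, and the dTAG-13 libraries were at 22.9 ± 6.90 CPM (SD, n = 2 each). L1td1 encodes an RNA-binding protein derived from a LINE-1 element and is no transcription factor (chromosome 4, 98726754 to 98738486). It was at 49.1 and 64.1 CPM untreated against 82.2 and 89.8 CPM under dTAG-13, or 56.6 ± 10.6 against 86.0 ± 5.37 CPM (SD, n = 2 each). It was the member with the tightest dTAG-13 replicates, 1.09-fold apart. The log2 fold changes were 0.66 ± 0.26 for Utf1 and 0.60 ± 0.17 for L1td1 (SE; edgeR, adjusted p = 1.00 and 0.948), and with 1 library left out they ranged from 0.29 to 0.93 and from 0.41 to 0.81. Klf5, Utf1 and L1td1 were also the 3 of 10 with an unadjusted p under 0.05 in edgeR and a higher level with dTAG-13, where 2.29% of all genes were.

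**Figure D2:**
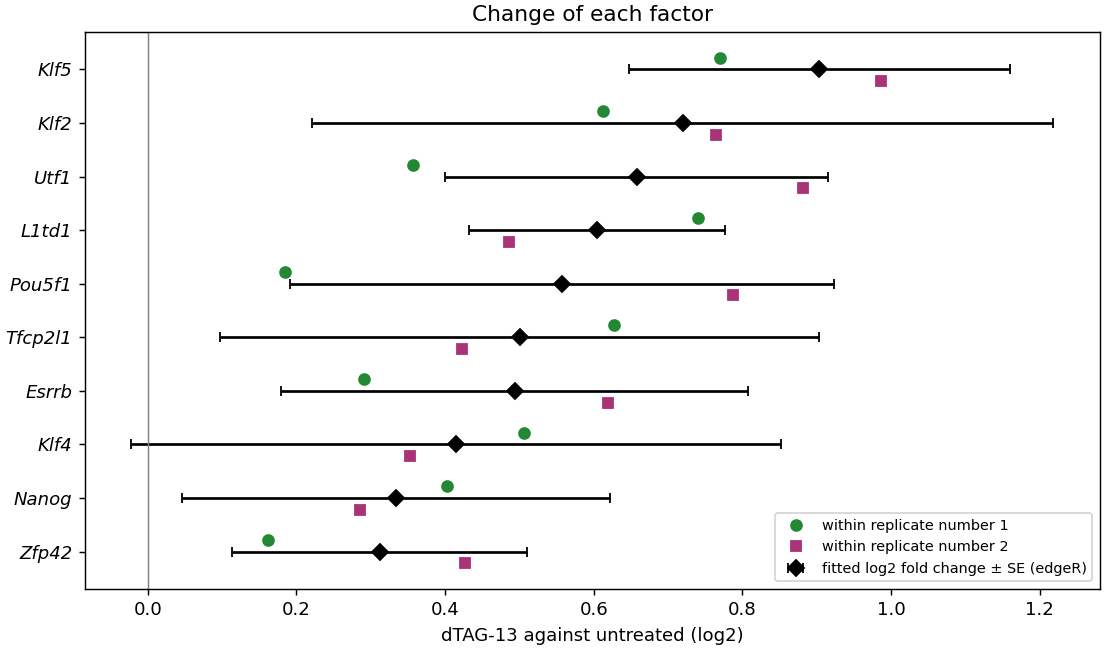
Change of each factor with dTAG-13 on the log2 scale, with the fitted value and its SE as diamonds and bars, and the differences within replicate number 1 (circles) and 2 (squares). All points lie above 0, and Klf5 at 0.90 has the largest fitted value.

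The 2 replicate numbers gave changes of different size for single genes, with no common direction. The difference was larger in number 2 for 6 of the 10 genes and larger in number 1 for Nanog, Klf4, Tfcp2l1 and L1td1; 49.4% of all genes had the larger value in number 2. Pou5f1 and Utf1 differed most, by 0.60 and 0.53 on the log2 scale, and L1td1 by -0.25 (number 2 minus number 1). With 1 library per group and number, this difference between numbers was not tested. Counting error was not compared with these differences gene by gene. The 95% Poisson interval of a level reached on average 4.81% to 19.8% of it to either side. The dTAG-13 interval lay above the untreated one for 5 genes in number 1 (18% of all genes) and for 9 in number 2 (11.5%), which compares libraries and not conditions, and the intervals cover counting error only.

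The level of all 10 was highest in dTAG-13 replicate 2, as for 27.5% of all genes tested, and lowest in untreated replicate 1; both held for 13.6%. Their CPM summed to 319 and 459 in the untreated and to 435 and 680.2 in the dTAG-13 libraries. Untreated replicate 1 was also the library with the largest share of reads outside genes, whose part in these values was not tested. Without dTAG-13 replicate 2, 8 of the 10 fitted changes stayed above 0 (47.4% of all genes) and their median was 0.05. In bulk RNA a change in the number of cells that express a gene and a change in RNA per cell cannot be told apart.

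Within the sum, Pou5f1 took 16.6% to 20.9% of the CPM over the 4 libraries, L1td1 13.2% to 18.9%, Klf2 5.26% to 7.90% and Klf4 2.43% to 3.35%. The ratio of Esrrb to Pou5f1 was 0.402 to 0.457. L1td1 to Pou5f1 was 0.776 and 0.778 in the untreated libraries but 1.14 and 0.631 with dTAG-13, on either side of them, so the dTAG-13 libraries lay further apart in this ratio than the untreated ones.

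Levels of different genes were compared per kilobase of annotated exon (GENCODE M21, all exons of a gene merged). Pou5f1 was first in every library, at 46.5 and 60.5 CPM per kb untreated and 52.9 and 104.5 with dTAG-13, and Nanog was the second, at 21.6 and 34.0 untreated and 28.5 and 41.4 with dTAG-13. The untreated order went on with Zfp42 (mean of 22.3 CPM per kb), L1td1 (18.0), Klf2 (13.1), Utf1 (11.9), Tfcp2l1 (6.05), Esrrb (5.69), Klf4 (3.82) and Klf5 (3.24). Pou5f1 and Nanog, Zfp42 and L1td1, and Utf1 and Tfcp2l1 were the neighbours whose untreated ranges did not overlap. The untreated ranges of the other neighbours overlapped, though Nanog was above Zfp42 and Esrrb above Klf4 in each of the 4 libraries. With dTAG-13 the order was the same except that Klf5 (6.05 CPM per kb) came before Klf4 (5.08), with overlapping ranges, and Zfp42 (27.7) and L1td1 (27.4) overlapped too.

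**Figure D3:**
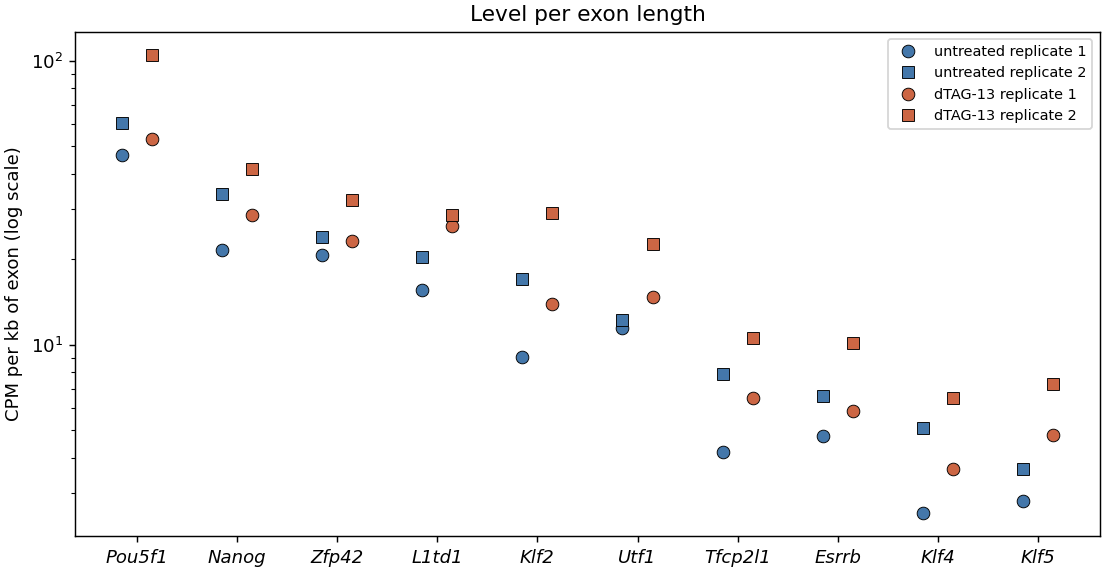
Level of each factor per kilobase of exon (log axis) in the 4 libraries, ordered by the untreated mean; colours mark the groups and shapes the replicates. Pou5f1 is highest in every library, and Klf4 and Klf5 are the lowest 2.

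The genes whose pattern over the 4 libraries lay nearest to that of Pou5f1 were Zfp185, Rbmxl2, Hip1r, Rgs17 and Esyt3. Likeness was the root mean square difference of centred log2 CPM over 4 libraries among 11383 other genes with a log2 CPM of at least 2, and it was 0.05 for Zfp185 and 0.07 for Esyt3. Esrrb was number 7 in that order, at 0.07, and the member nearest to Pou5f1, while L1td1 was the farthest at 0.31. Nearest to Nanog were Mtmr7 (0.02), Zdhhc23, Sowahc, Dag1 and Zfp936 (0.04). With 4 libraries such a match rests on 4 values and is a description.

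Other genes of the pluripotent state were set beside the 10 factors, and a difference between the sets was not tested. Of 24 further pluripotency genes, 0 passed in edgeR (0% of all genes), 20 had a value above 0 (50.9% of all genes) and 15 were higher in both numbers (27.7% of all genes), with a median log2 fold change of 0.14. Without dTAG-13 replicate 2 the median was 0.086 for these 24 and 0.054 for the 10 factors, so the order of the medians turned. The 2 genes lower in both numbers (23.9% of all genes), named after their values were seen, were Sox2, a partner of POU5F1 that neural progenitors also express (log2 fold change -0.39 ± 0.39), and the homeobox gene Gbx2 (-0.70 ± 0.77; SE). With an unadjusted p under 0.05 in edgeR there were 3 higher (2.29% of all genes) and 0 lower. Tbx3, a T-box factor of the naive network, was at 11.7 CPM in each untreated library and 22.9 and 21.3 CPM under dTAG-13, for a fitted log2 change of 0.91 ± 0.20 (SE; edgeR, adjusted p = 0.774). Nr5a2, a nuclear receptor that can activate Pou5f1, was at 8.504 and 12.98 CPM untreated against 15.7 and 21.5 CPM under dTAG-13. The groups of these genes, and of Tdgf1 (the NODAL co-receptor CRIPTO, log2 fold change 0.53 ± 0.20) and Tdh (a threonine dehydrogenase of mouse embryonic stem cells, 0.68 ± 0.31), did not overlap. In all, 9 of the 24 had both dTAG-13 libraries higher (14.4% of all genes) and 0 had both lower (11.9%).

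Among 12 genes of the LIF and STAT3 pathway, which feeds Klf4 and Tfcp2l1 in embryonic stem cells, 0 passed in edgeR (0% of all genes). In both numbers 4 were higher and 2 lower (27.7% and 23.9% of all genes), and the median log2 fold change was 0.09. Junb, an immediate early gene, was at 4.82 and 3.64 CPM untreated against 6.82 and 7.55 CPM under dTAG-13, and the kinase genes Pim3 and Jak1 had log2 fold changes of 0.31 ± 0.20 and 0.19 ± 0.14. Lif, the ligand, had -0.34 ± 0.30, and none of these passed (SE; edgeR, adjusted p = 1.00 for all 4). Stat3 itself, picked after its value was seen, had 0.11 ± 0.22.

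Genes of the formative and primed epiblast, the states that follow naive pluripotency, had no common direction. Of 12 listed, 11 had enough counts and 0 passed (0% of all genes). In both numbers 4 were higher and 4 lower (27.7% and 23.9% of all genes), and the median was -0.04. Dnmt3b, a DNA methyltransferase, was at 253 and 238 CPM untreated against 289 and 426 CPM under dTAG-13 (log2 fold change 0.54 ± 0.20). Sall2, a zinc finger gene, was at 87.1 and 108 CPM untreated against 80.7 and 66.7 CPM under dTAG-13 (-0.40 ± 0.17), Etv5, an ETS factor, had 0.27 ± 0.16, and Lef1, a WNT effector, had -0.24 ± 0.16 (SE; edgeR, adjusted p = 1.00 for all 4). Of the 11, 2 had both dTAG-13 libraries higher (Dnmt3b and Etv5, 14.4% of all genes) and 2 had both lower (Sall2 and Lef1, 11.9%). These 4 were also picked by smallest p, which rests on the same libraries, so their separation is no further evidence.

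Among the other KLF genes and their SP relatives, 15 of 18 had enough counts and 0 passed (0% of all genes). In both numbers 7 were higher and 1 lower (27.7% and 23.9% of all genes), and the median log2 fold change was 0.13. Klf6 was at 57.0 and 54.6 CPM untreated against 70.3 and 76.8 CPM under dTAG-13, for a fitted log2 change of 0.40 ± 0.14. Klf7, Klf8 and Klf9 had 0.46 ± 0.21, 0.41 ± 0.21 and 0.32 ± 0.16 (SE; edgeR, adjusted p = 1.00 for all 4). Klf2 and Klf5 had larger fitted values than any of these 15, and Klf4 lay among them; a difference between the sets was not tested.

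Markers of several other cell types were also compared between the groups, and none of them passed the test over all genes in edgeR (0% of all genes called). Epithelial markers, among them Cdh1 and Epcam, were higher in both numbers for 8 of 8 (27.7% of all genes), with a median log2 fold change of 1.28. For 7 of the 8 both dTAG-13 libraries were higher (14.4% of all genes). They summed to 555 and 785 CPM untreated against 1001 and 1889 CPM under dTAG-13. Primordial germ cells keep Pou5f1 and Nanog active. Their 9 markers were higher in both numbers for 8 of 9 (27.7% of all genes), with a median log2 fold change of 0.64. For 3 of the 9, Prdm1, Dnd1 and Kit, both dTAG-13 libraries stood above both untreated ones (14.4% of all genes). Prdm1 was at 37.0 and 16.8 CPM untreated against 60.3 and 38.4 CPM under dTAG-13. The 9 markers summed to 188 and 238 CPM untreated against 276 and 358 CPM under dTAG-13. Most of that sum was Kit and Tfap2c, which other tissues also express; the germ cell genes Ddx4 (2.56 and 2.93 CPM untreated, 2.90 and 5.18 with dTAG-13), Dazl (2.11 to 3.48 CPM) and Nanos3 (0.376 to 1.44 CPM) were low in all libraries, and Prdm14 and Dppa3 are in the list of further pluripotency genes as well. Gut endoderm markers were higher in both numbers for 5 of 7 (27.7% of all genes), and 3 of 7 had both dTAG-13 libraries higher (14.4%). They summed to 248 to 369 CPM untreated and 338 to 394 CPM with dTAG-13. All 7 neural tube markers and 8 of 9 somite and presomitic markers were lower in both numbers (23.9% of all genes). Both dTAG-13 libraries stood below both untreated ones for 7 of 7 and 5 of 9 of these (11.9% of all genes). Of 6 tail bud markers, 4 were lower in both numbers (23.9% of all genes). Both dTAG-13 libraries were lower for 1 (11.9%) and higher for 1 (14.4%). The 6 summed to 250.5 and 521 CPM untreated against 233 and 362 CPM under dTAG-13. The part of these cell types in the levels of the 10 factors was not tested.

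**Figure D4:**
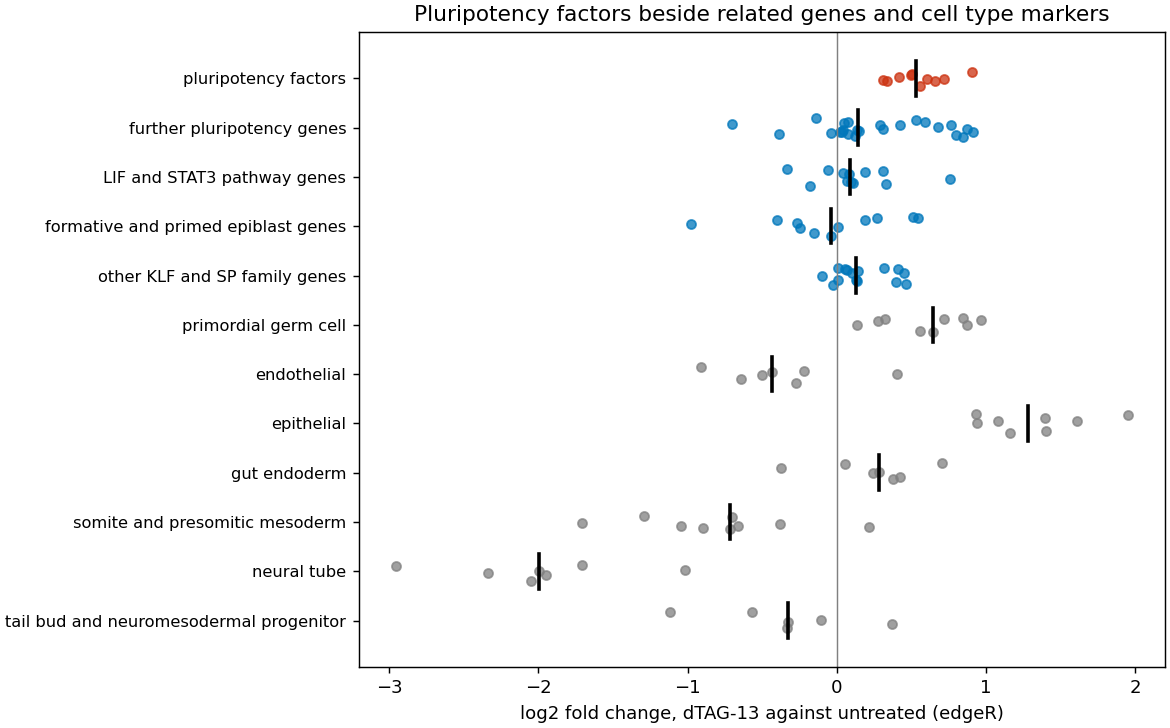
Fitted log2 fold change of every tested gene in the pluripotency factors (red), the related gene lists (blue) and the cell type marker lists (grey), with a black bar at each median; vertical scatter within a row carries no value. The 10 factors lie between 0.31 and 0.90, and with all 4 libraries they lie above the medians of the 4 related lists (-0.04 to 0.14) and below that of the epithelial markers (1.28).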

How the data were processed

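Libraries were made from total RNA after ribosomal RNA depletion, per the labels' protocols. Per the submitters' processing notes, which give no roles, the tools were STAR 2.7.6a, fastp 0.20.1, DESeq2 1.34.0 and HTSeq 0.12.4, with mm10 and GRCm38.p6 as builds; neither the annotation nor the strand setting is stated there. The authors deposited raw counts per gene symbol, and the summary lines of each table (24.1% to 35.7% of reads outside genes, 0.209% to 0.240% ambiguous) entered neither library sizes nor tests.

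Groups came from the titles. The test was edgeR 4.0.16 in R 4.3.3: filterByExpr (minimum count 10, minimum total 15), TMM factors, robust glmQLFit and glmQLFTest (two-sided), adjusted by Benjamini-Hochberg over 13602 genes and a threshold of 0.05, on all 4 libraries with the group alone. The SE is the absolute log2 fold change over the square root of F. Within-number differences use log2 CPM with a prior count of 2. For 1 value, 2 libraries against 2 allow no exact p below 0.333. The chi-square per degree of freedom between replicates was 38.4 (untreated) and 32.7 (dTAG-13), so none is a copy. DESeq2 1.42.0 and 9 other alternatives were run. The genes, lists and rules were chosen with earlier results of these data known. In each list the examples are the up to 4 members of smallest p whose mean log2 CPM reaches 0.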

Additional observations from a re-analysis of the deposited data

How the results depend on the processing

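The 10 alternatives were RLE or upper quartile factors, DESeq2, no filter, at least 50 counts, the replicate block, and leaving out each library. Of 100 values of single factors under them, 97 stayed above 0, most of them from refits of the same 4 libraries, in which no sign turned. The 3 others were Pou5f1 without dTAG-13 replicate 2 (-0.036; up to 0.97 with any other library left out) and Klf4 with untreated replicate 1 (-0.015) or dTAG-13 replicate 2 (-0.077) left out (highest 0.99). The median of the 10, 0.53 with all libraries, was 0.51 to 0.53 under other factors, filters or DESeq2 and 0.054 to 0.82 with 1 library left out, lowest without dTAG-13 replicate 2. The count of called genes, 0 in edgeR with the group alone and in each fit without 1 library, was 40 with DESeq2, none of them a pluripotency factor. With 1 library left out, the lone library of its group is assumed to vary like the others.

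Under the replicate block, edgeR called 636 genes, 395 of them higher (2.9% of all genes), and 7 of the 10 factors: Pou5f1, Esrrb, Klf2, Klf5, Tfcp2l1, Utf1 and L1td1, with a median of 0.51 over the 10. Same-numbered libraries deviated together (correlation 0.63 across genes). The chi-square per degree of freedom was 26.3 and 24.1 between libraries of numbers 1 and 2. Within the untreated and dTAG-13 groups it was 38.4 and 32.7. No label says what a number marks, and there are only 2 pairs. Without dTAG-13 replicate 2 the median of the 10 factors (0.054) moved by more than the spread between replicates. The medians of the LIF and STAT3 and the epiblast lists also did so when single libraries were left out (0.04 to 0.20 and -0.29 to 0.06). Depth limits Klf4 most, with 103 counts in untreated replicate 1.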
